A study of Homo sapiens with 6 samples.

Results

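The aminoacyl-tRNA synthetase genes of MDA-MB-231 cells were followed with and without plasmid overexpression of ABI2. MDA-MB-231 is an established human triple-negative breast cancer line, and ABI2 is an adaptor of the WAVE complex, which drives branched actin assembly. The members were taken by symbol, in the older nomenclature without a final 1, and all 36 listed symbols were found once each among the 20260 complete rows of the deposited table. They comprised 20 symbols without the suffix 2, which encode the cytosolic enzymes, and 16 with it, which encode mitochondrial enzymes. GARS and KARS each encode both a cytosolic and a mitochondrial form and were counted with the cytosolic symbols. All 36 passed the low-count filter, which left 13325 genes to test.

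Aminoacyl-tRNA synthetases join each amino acid to its transfer RNA and so supply both ribosome systems of the cell. Nuclear genes encode both sets. The mitochondrial set serves the few proteins made inside the organelle, while the cytosolic set serves all other translation. In animal cells a group of cytosolic synthetases is held in a multisynthetase complex by the scaffold proteins AIMP1, AIMP2 and EEF1E1, and several cytosolic synthetase genes are known targets of the stress-responsive transcription factor ATF4. Class I and class II enzymes have unrelated catalytic folds.

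The samples were 3 libraries from cells given the ABI2 plasmid and 3 from cells given an empty vector (control). Both groups were transfected, and the labels name neither the promoter of the plasmid nor separate cultures, so the p-values cover only the variation among the libraries at hand, part of which may be technical. Library totals were 39243211 to 40241508 counts with the ABI2 plasmid and 38453152 to 40309690 counts in control. ABI2 had 221, 221 and 225 CPM (counts scaled to a common, TMM-adjusted library size) in the ABI2 libraries and 82.9, 81.1 and 83.3 CPM in control. That is a log2 fold change of 1.43 ± 0.04 (SE), with an adjusted p of 1.23e-05 by edgeR's quasi-likelihood test. The line's markers VIM, CD44, AXL, EGFR and MSN summed to 4550 to 4690 TPM (the authors' length-normalized abundance) in the ABI2 libraries and to about 4050 TPM in each control library. ESR1, PGR, CDH1 and EPCAM, low or absent in this line, summed to 1.83 to 2.44 TPM in the ABI2 libraries and 2.01 to 2.71 TPM in control. PTPRC, ALB, COL1A1 and PECAM1, markers of other cells, summed to 2.69 to 3.57 TPM against 2.96 to 4.35 TPM in control. PGR, CDH1 and PTPRC had no counts in any library, while COL1A1 was called higher and PECAM1 lower, at log2 0.35 and -0.94 (edgeR adjusted p = 0.0272 and 0.000393). Count-weighted transcript GC content was 53.7% to 54.1% in the ABI2 libraries and 50.8% to 51.3% in control. Fold changes with GC content taken out are therefore given beside most of those without. With GC content taken out ABI2 had a log2 fold change of 2.78, COL1A1 of -0.23 and PECAM1 of -0.88 (edgeR adjusted p = 3.39e-05, 0.114 and 0.001).

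Most synthetase mRNAs differed between the groups, and in both directions. Of the 36 genes, 19 rose, 13 fell and 4 did not pass (edgeR adjusted p below 0.05). In the same test 73.1% of all genes passed, 35.1% higher and 38.0% lower in the ABI2 libraries, beside 88.9% of the members. The 20 cytosolic or dual genes divided into 9 that rose, 9 that fell and 2 that did not pass. Their median log2 fold change was 0.07. The 16 mitochondrial genes divided into 10 that rose, 4 that fell and 2 that did not pass, and their median was 0.55. The median over all tested genes was -0.01. Both directions occurred in each enzyme class: the 9 cytosolic class I genes had 5 rises and 3 falls, the 10 cytosolic class II genes had 4 rises and 5 falls, and EPRS, which holds a domain of each class, fell. The log2 fold changes ran from -3.09 to 0.91 in the cytosolic set and from -1.47 to 0.87 in the mitochondrial set, so the largest falls were cytosolic and the largest rises were alike in size. In 19 of the 36 genes every ABI2 library was above every control library (37.8% of all tested genes), in 13 every ABI2 library was below (40.1% of all tested genes), and in 4 the groups overlapped. Over both directions the groups did not overlap in 77.9% of all tested genes. In bulk RNA, a change in the number of cells of a kind and a change in RNA per cell cannot be told apart.

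**Figure D1:**
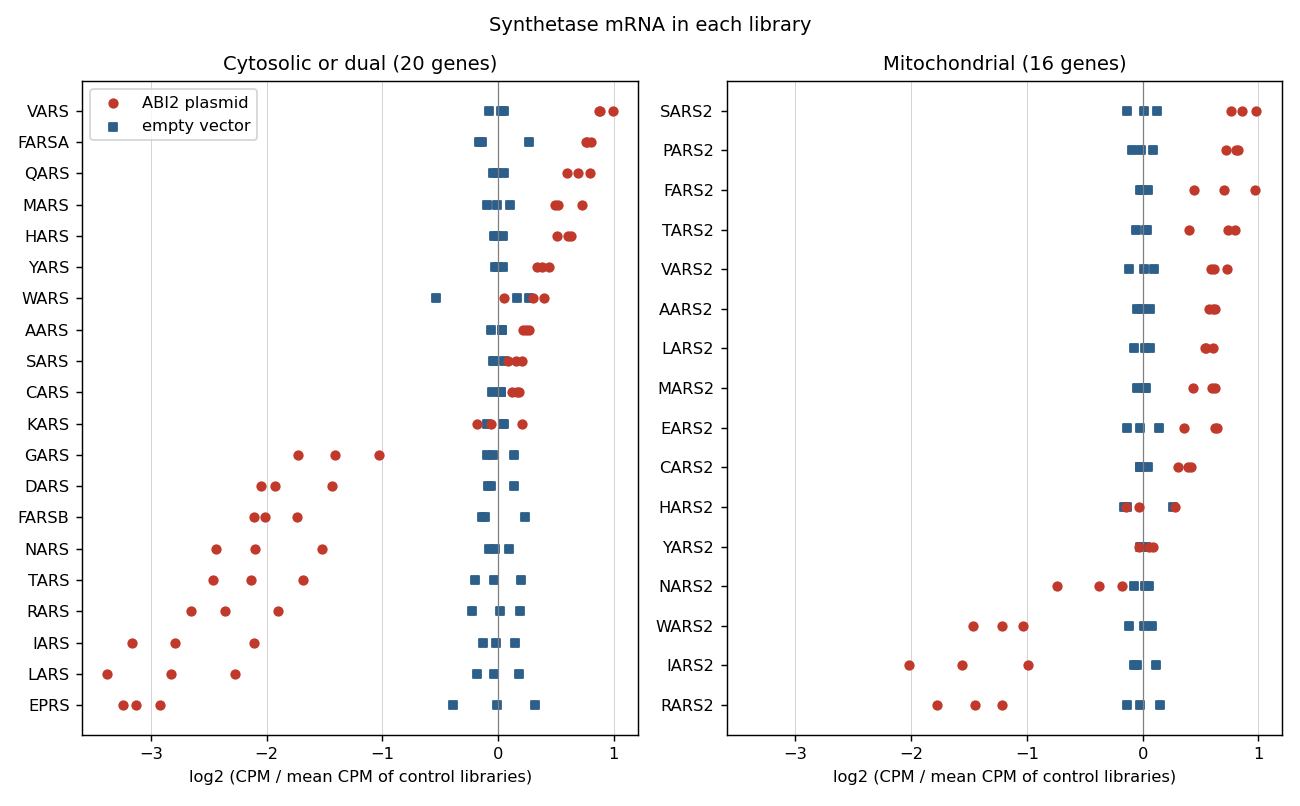
Each row is a synthetase gene and each point a library, placed by the log2 ratio of its CPM to the mean CPM of the 3 control libraries; red circles are ABI2 libraries and blue squares control libraries. The lowest points are ABI2 replicate 3 of LARS, EPRS and IARS, the rises stay below 1, and the ABI2 libraries are spread more widely among the genes that fell than among those that rose.

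Because fold changes across the transcriptome followed transcript GC content (Spearman's rho 0.79 over 13314 tested genes, which are not independent), each value was also taken from a fit with GC offsets. That fit takes a smooth curve of GC content out of each library, and with it any true difference that follows GC content. There 51.2% of all genes passed, 28.6% higher and 22.6% lower. The cytosolic or dual genes then gave 4 rises, 10 falls and 6 that did not pass, and a median log2 fold change of -0.11. The mitochondrial genes gave 5 rises, 0 falls and 11 that did not pass, and a median of 0.07. The median of all genes in that fit was 0.04. At an unadjusted p below 0.05 edgeR with GC offsets gave 1 mitochondrial fall, and edgeR with offsets for GC content and length gave 2 at the adjusted level. CARS2 was among those 2, at -0.22 (edgeR adjusted p = 0.00803), though it was called higher without offsets, at 0.37. No other tool was run with offsets. Without them DESeq2 and limma on TPM each gave 4.

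The multisynthetase complex split into genes that fell several-fold and genes that rose or did not pass. EPRS, the bifunctional enzyme for glutamate and proline (ENSG00000136628, chr1:219968601-220046658, minus strand, GRCh38), had 12.8, 11.1 and 10.3 CPM in the ABI2 libraries and 96.3, 121 and 74.0 CPM in control. The groups lay far apart, and EPRS had the largest fall of all members. Its log2 fold change was -3.09 ± 0.20, an 8.54-fold lower level (SE; edgeR adjusted p = 2.45e-05), and -2.00 ± 0.15 with GC offsets (edgeR adjusted p = 0.000117).

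LARS, the leucine enzyme that also senses leucine for mTORC1 (ENSG00000133706, chr5:146113038-146182660, minus strand), had 27.9, 19.0 and 13.0 CPM in the ABI2 libraries and 132, 153 and 119 CPM in control. IARS, the isoleucine enzyme (ENSG00000196305, chr9:92210207-92293756, minus strand), had 94.1, 58.6 and 45.3 CPM against 399, 448 and 369 CPM in control. For both, every ABI2 library was below every control library, and ABI2 replicate 1 was the nearest to control. The log2 fold changes were -2.75 ± 0.28 for LARS and -2.62 ± 0.28 for IARS (SE; edgeR adjusted p = 0.000195 and 0.000259), and -1.41 and -1.63 with GC offsets.

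RARS, the arginine enzyme, had 29.1, 21.2 and 17.3 CPM in the ABI2 libraries and 110, 124 and 93.0 CPM in control. DARS, the aspartate enzyme, had 44.7, 31.8 and 29.2 CPM against 116, 133 and 114 CPM in control. Both fell, with log2 fold changes of -2.27 ± 0.21 and -1.78 ± 0.17 (SE; edgeR adjusted p = 0.000106 and 0.000102). With GC offsets they were -0.90 for RARS and -0.39 for DARS, and both still passed (edgeR adjusted p = 0.00147 and 0.0187).

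The other complex members were not lower. QARS, the glutamine enzyme, had 159, 169 and 182 CPM in the ABI2 libraries and 104, 102 and 109 CPM in control. MARS, the methionine enzyme, had 141, 122 and 120 CPM against 84.8, 91.2 and 79.5 CPM in control. Both rose without overlap, by log2 0.70 ± 0.06 and 0.59 ± 0.08 (SE; edgeR adjusted p = 6.89e-05 and 0.000548). MARS overlaps DDIT3 and ARHGAP9 on the opposite strand. The strand setting of the counting is not given, so reads from a shared stretch cannot be told apart. With GC offsets QARS had 0.28 and passed, and MARS had 0.26 and did not (edgeR adjusted p = 0.00224 and 0.053).

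KARS, the lysine enzyme of cytosol and mitochondria, had 155, 128 and 118 CPM in the ABI2 libraries and 138, 139 and 125 CPM in control. The groups overlapped, the ratio of their levels was 0.997, and the gene did not pass (edgeR adjusted p = 0.969). With GC offsets KARS had a log2 fold change of 0.46 and passed (edgeR adjusted p = 0.00133). In all, 5 of the 8 complex synthetases fell, 2 rose and 1 did not pass, where 38.0% of all tested genes fell and 35.1% rose. The 5 that fell have transcripts below 45% GC content, a band in which 83.8% of all tested genes fell. The summed level of the 8 genes was 404 to 450 TPM in the ABI2 libraries against 692 to 773 TPM in control. Their median log2 fold change was -2.03, and -0.64 with GC offsets. Their transcripts had a median GC content of 43.4%, against 49.8% for all tested genes.

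The scaffolds of the complex did not follow a single direction. AIMP1 had 9.20, 8.01 and 7.21 CPM in the ABI2 libraries and 23.4, 24.3 and 23.1 CPM in control, a log2 fold change of -1.54 ± 0.11 (SE; edgeR adjusted p = 2.73e-05). EEF1E1 had a log2 fold change of -0.59 and AIMP2 of 0.59, and both passed (edgeR adjusted p = 0.000307 and 0.000509). With GC offsets all 3 scaffolds were higher in the ABI2 libraries, at 0.26 for AIMP1, 1.19 for EEF1E1 and 0.42 for AIMP2, so the direction of AIMP1 and EEF1E1 turned. Their transcripts have 36.3% and 36.9% GC content.

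**Figure D2:**
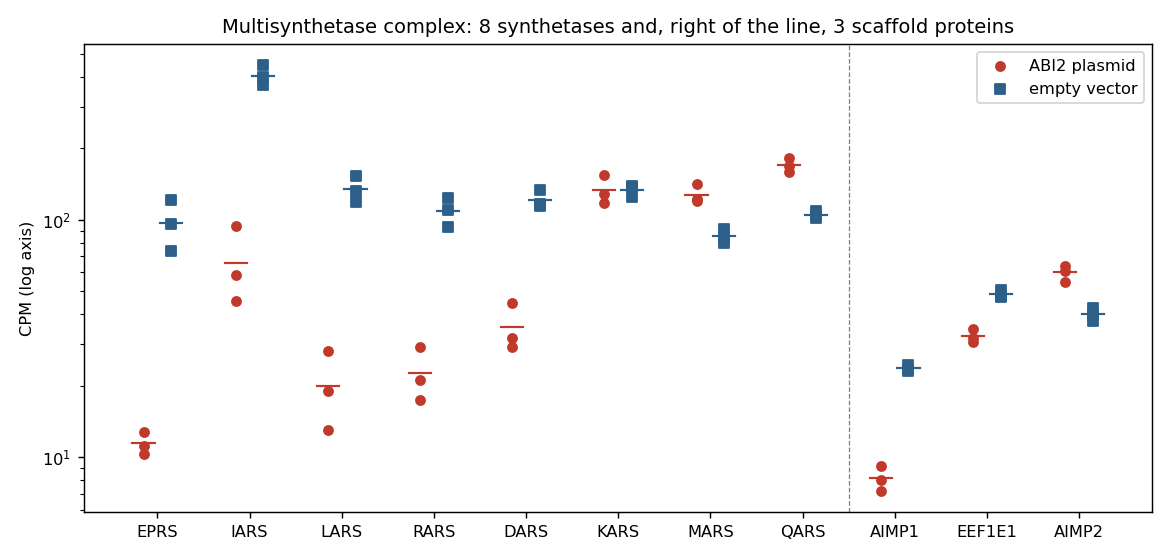
CPM on a log axis of the 8 synthetases and 3 scaffolds of the multisynthetase complex; points are libraries, short lines are group means, red is ABI2 and blue is control. EPRS, IARS, LARS, RARS and DARS are lower in each ABI2 library than in any control library, KARS overlaps, and MARS and QARS are higher.

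Phenylalanyl-tRNA synthetase is built from alpha and beta subunits, and the genes of the subunits went apart. FARSA, the alpha subunit (ENSG00000179115, chr19:12922479-12934037, minus strand), had 275, 269 and 268 CPM in the ABI2 libraries and 143, 141 and 190 CPM in control. FARSB, the beta subunit (ENSG00000116120, chr2:222570536-222656337, minus strand), had 13.6, 11.2 and 10.5 CPM against 41.9, 53.1 and 41.0 CPM in control. FARSA was higher and FARSB lower in every ABI2 library, with control replicate 3 the nearest to the ABI2 libraries for FARSA.

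The log2 fold changes were 0.78 ± 0.12 for FARSA and -1.94 ± 0.15 for FARSB (SE; edgeR adjusted p = 0.000871 and 3.07e-05). With GC offsets FARSB kept a fall of -0.59 (edgeR adjusted p = 0.00206), while FARSA at 0.22 did not pass (edgeR adjusted p = 0.108). On the per-length TPM scale the FARSA to FARSB ratio was 39.1, 47.1 and 48.8 in the ABI2 libraries and 6.68, 5.24 and 9.09 in control. The FARSA transcript has 60.3% GC content and the FARSB transcript 41.6%.

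Outside the complex, TARS, NARS and GARS also fell. TARS, the threonine enzyme, had 82.5, 60.2 and 48.1 CPM in the ABI2 libraries and 259, 304 and 231 CPM in control. NARS, the asparagine enzyme, had 35.8, 24.0 and 19.0 CPM against 101, 110 and 97.3 CPM in control. GARS, the glycine enzyme of cytosol and mitochondria, had 78.0, 59.9 and 47.9 CPM against 154, 175 and 149 CPM in control. For each of them the groups did not overlap.

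The log2 fold changes were -2.06 ± 0.21 for TARS, -1.97 ± 0.23 for NARS and -1.36 ± 0.18 for GARS (SE; edgeR adjusted p = 0.000201, 0.000313 and 0.000494). With GC offsets all 3 stayed below -1, at -1.24, -1.10 and -1.21. GARS moved least between the fits, and at 48.6% its GC content was the highest among the members that fell.

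The cytosolic rises were smaller. VARS, the valine enzyme, had 395, 394 and 427 CPM in the ABI2 libraries and 219, 204 and 222 CPM in control. That is a 1.89-fold difference without overlap, with a log2 fold change of 0.91 ± 0.06 (SE; edgeR adjusted p = 1.75e-05), and of 0.33 with GC offsets (edgeR adjusted p = 0.000509). HARS, the histidine enzyme, had 124, 132 and 135 CPM against 85.1, 86.4 and 89.8 CPM in control, and rose by log2 0.58 ± 0.05, or 0.21 with GC offsets (edgeR adjusted p = 7.77e-05 and 0.00605). HARS overlaps HARS2 and WDR55 on the opposite strand and DND1 on the same strand, and reads from a shared stretch cannot be told apart. VARS, HARS and QARS were the cytosolic genes called higher in both fits.

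YARS, AARS, SARS and CARS, the enzymes for tyrosine, alanine, serine and cysteine, had log2 fold changes of 0.38, 0.24, 0.15 and 0.15 (edgeR adjusted p = 0.000312, 0.00279, 0.0367 and 0.0266). With GC offsets these became -0.06, -0.07, -0.01 and -0.14, so the direction of each turned, and CARS passed as a fall (edgeR adjusted p = 0.0252), a call lost with the replicate block and GC offsets (edgeR adjusted p = 0.0701). The calls of CARS and SARS were also lost without several single libraries, at adjusted p of up to 0.0744 and 0.114 by edgeR. With library size without TMM both genes were at 0.06 and did not pass (edgeR adjusted p = 0.397 and 0.376). On TPM CARS, SARS and AARS were at 0.02, 0.01 and 0.10 and did not pass (limma adjusted p = 0.784, 0.837 and 0.137). WARS, the tryptophan enzyme, had 111, 141 and 132 CPM in the ABI2 libraries and 129, 73.7 and 120 CPM in control. Control replicate 2 was low for WARS, the groups overlapped, and the gene did not pass (edgeR adjusted p = 0.324). On the genome YARS overlaps S100PBP and WARS overlaps WDR25, each on the opposite strand.

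Among the mitochondrial enzymes the rises were more numerous than the falls. SARS2, the serine enzyme, had 32.5, 34.6 and 37.7 CPM in the ABI2 libraries and 17.4, 20.8 and 19.2 CPM in control. PARS2, the proline enzyme, had 17.5, 18.5 and 18.8 CPM against 9.92, 10.5 and 11.3 CPM in control. LARS2, the leucine enzyme, had 61.6, 58.9 and 58.5 CPM against 40.8, 38.2 and 42.1 CPM in control. The groups of these genes were well separated.

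The log2 fold changes were 0.87 ± 0.10 for SARS2, 0.79 ± 0.09 for PARS2 and 0.57 ± 0.06 for LARS2 (SE; edgeR adjusted p = 0.000181, 0.000201 and 0.000181). MARS2, the methionine enzyme, had 38.0, 33.9 and 38.7 CPM in the ABI2 libraries and 25.5, 24.2 and 25.6 CPM in control, a log2 fold change of 0.55 ± 0.08 (SE; edgeR adjusted p = 0.000577). With GC offsets SARS2, PARS2, LARS2 and MARS2 were again called higher, at 0.28, 0.44, 0.46 and 0.74. The SARS2 call (edgeR adjusted p = 0.0483) was lost with GC and length offsets, at 0.16, and with the replicate block and GC offsets (edgeR adjusted p = 0.20 and 0.0587). The 4 genes were the mitochondrial ones called higher in both fits, without and with GC offsets. SARS2 overlaps MRPS12, a mitochondrial ribosomal protein gene, on the opposite strand and AC011455.3 on the same strand. Reads from a shared stretch cannot be told apart.

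The other mitochondrial rises were not called with GC offsets. FARS2, TARS2, VARS2, AARS2, EARS2 and CARS2 had log2 fold changes of 0.72, 0.65, 0.65, 0.60, 0.55 and 0.37, each with an edgeR adjusted p of 0.00314 or less. With GC offsets they lay between -0.09 and 0.30 and none passed. Their transcripts ranged from 54.6% GC content in TARS2 to 60.4% in VARS2. HARS2 and YARS2 did not pass in either fit, and their log2 fold changes were 0.04 and 0.03. On the genome AARS2, EARS2 and HARS2 overlap genes on the opposite strand, and HARS2 also overlaps ZMAT2 on the same strand.

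RARS2, IARS2, WARS2 and NARS2 fell. IARS2, the isoleucine enzyme, had 99.8, 67.1 and 48.9 CPM in the ABI2 libraries and 191, 214 and 188 CPM in control. RARS2, the arginine enzyme, had 7.99, 6.80 and 5.42 CPM against 18.3, 20.6 and 16.9 CPM in control. WARS2, the tryptophan enzyme, had 5.73, 5.04 and 4.24 CPM against 10.8, 12.4 and 11.8 CPM in control. No ABI2 library of these genes reached the control libraries.

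The log2 fold changes were -1.46 ± 0.25 for IARS2, -1.47 ± 0.16 for RARS2 and -1.22 ± 0.14 for WARS2 (SE; edgeR adjusted p = 0.0022, 0.000155 and 0.000184). With GC offsets they were -0.50, -0.16 and -0.02, and none passed (edgeR adjusted p = 0.0678, 0.215 and 0.869). NARS2, the asparagine enzyme, had 13.8, 12 and 9.35 CPM in the ABI2 libraries and 15.8, 14.8 and 16.2 CPM in control, or -0.41 in log2 fold change (edgeR adjusted p = 0.0386). Its call was lost when any library but ABI2 replicate 1 was left out, at adjusted p of up to 0.0955 by edgeR. With GC offsets NARS2 was called higher, at 0.52 (edgeR adjusted p = 0.00699).

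The cytosolic and mitochondrial genes for the same amino acid were then set against each other within each library, a ratio that does not depend on library scaling. Of 17 such pairs the cytosolic to mitochondrial CPM ratio was lower in every ABI2 library than in any control library for 11, higher for 4, and overlapping for 2. For single genes the groups did not overlap in 77.9% of all tested genes, and the share among other gene pairs was not computed. The largest shifts were in the pairs with EPRS, LARS, TARS and FARSB. The EPRS to PARS2 ratio was 0.727, 0.600 and 0.548 in the ABI2 libraries and 9.71, 11.5 and 6.54 in control, so the proline pair crossed from a cytosolic to a mitochondrial excess of reads. The LARS to LARS2 ratio was 0.452, 0.322 and 0.222 against 3.24, 4.0 and 2.83 in control, and it crossed in the same way.

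The TARS to TARS2 ratio was 1.87, 1.08 and 0.826 in the ABI2 libraries and 8.07, 8.93 and 6.72 in control. For isoleucine, where both genes fell, the IARS to IARS2 ratio was 0.943, 0.874 and 0.925 against 2.09, 2.1 and 1.96 in control, and for asparagine the NARS to NARS2 ratio was 2.59, 2.00 and 2.03 against 6.38, 7.43 and 6.02. In both pairs the cytosolic gene lost more than its mitochondrial counterpart. The pairs at the other end were WARS to WARS2, at 19.4, 28.0 and 31.2 against 12, 5.93 and 10.1 in control, and HARS to HARS2, at 3.53, 5.06 and 4.77 against 3.30, 2.50 and 3.41. The HARS and HARS2 genes lie across each other on opposite strands, so reads from the stretch they share cannot be told apart. MARS to MARS2 and FARSA to FARS2 overlapped, with differences of the mean log2 ratio of 0.03 and 0.09.

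With 3 libraries against 3, the exact two-sided permutation test cannot give a p below 0.1. It gave 0.1 for the 15 pairs whose groups did not overlap, which is 0.113 after Benjamini-Hochberg adjustment over the 17 pairs, and 0.7 for FARSA to FARS2 and 0.9 for MARS to MARS2. A shared gene ties some pairs together, since EPRS and FARS2 each enter 2 of them. The cytosolic and mitochondrial transcripts of a pair differ in GC content, which the ratio does not remove.

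**Figure D3:**
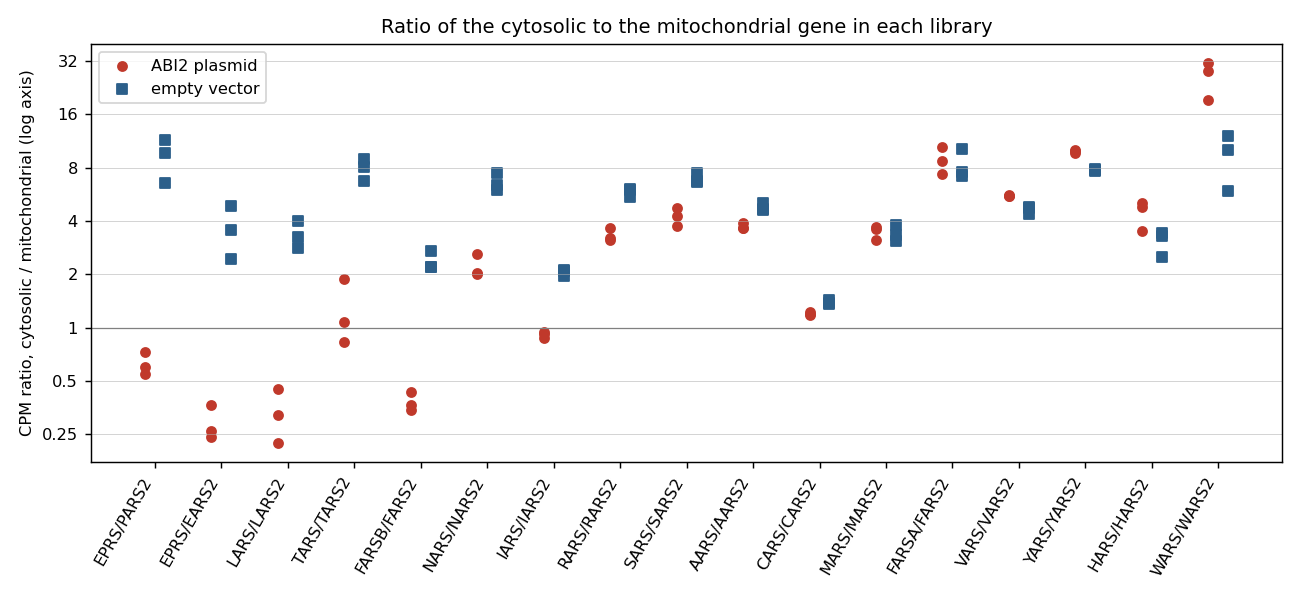
CPM ratio of the cytosolic to the mitochondrial gene in each library, on a log axis, for 17 pairs ordered by the difference between groups; red circles are ABI2 and blue squares control libraries. The pairs with EPRS, LARS, FARSB and IARS lie below 1 in the ABI2 libraries and above 1 in control, and the tryptophan pair at the far right lies higher in the ABI2 libraries.

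Transcript GC content ordered the members closely. Across the 36 genes, which share the same libraries, Pearson's r between GC content and log2 fold change was 0.86 and Spearman's rho 0.89. The 13 genes that fell had transcripts of 41.2% to 48.6% GC content, and the 19 that rose of 48.4% to 62.6%. Below 45% GC content all 12 members fell, as did 83.8% of all 4470 tested genes in that band. At 50% and above 18 of 20 members rose and none fell, while 64.2% of all 6582 tested genes there rose and 4.79% fell.

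The members of low GC content were followed through both fits. Without offsets the median log2 fold change below 45% GC content was -2.16 for the 8 cytosolic genes and -1.34 for the 4 mitochondrial genes. With GC offsets, of the 8 cytosolic genes below 45% (EPRS, LARS, IARS, RARS, DARS, FARSB, NARS and TARS) all 8 were still called lower, with a median log2 fold change of -1.17. Of the 4 mitochondrial genes below 45%, none was called lower and NARS2 was called higher, with a median of -0.09. Of all tested genes in that band 30.9% were called lower and 33.7% higher with GC offsets, with a median of 0.00. The difference between the cytosolic and mitochondrial sets was not tested. Across the cytosolic genes alone the fold change with GC offsets was still related to GC content (Pearson's r 0.73, n = 20), and across the mitochondrial genes it was weakly so (r 0.16, n = 16), both given as descriptions.

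**Figure D4:**
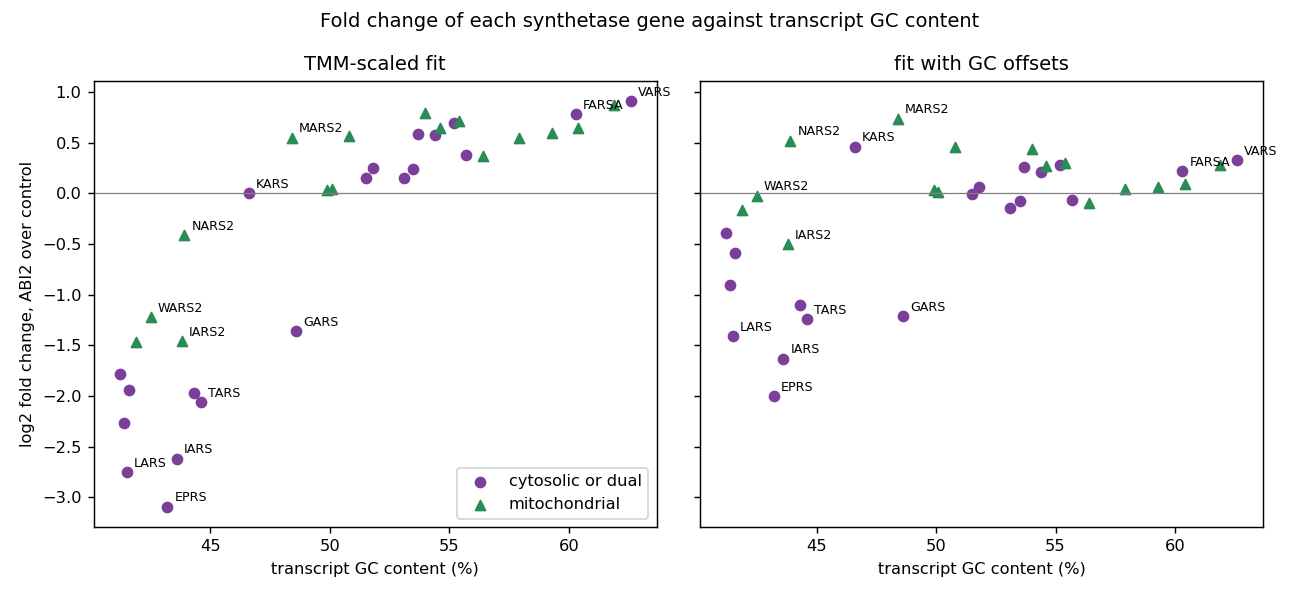
Log2 fold change of each synthetase gene against the GC content of its transcript, without (left) and with (right) GC offsets; circles are cytosolic or dual genes and triangles mitochondrial genes. Without offsets the fold change climbs with GC content in both sets; with offsets the mitochondrial genes lie between -0.50 and 0.74 while EPRS, IARS, LARS, TARS, GARS and NARS stay below -1.

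Levels per transcript length were compared on the TPM scale. IARS, TARS and FARSA stood highest in control cells, at 166 ± 13.3, 165 ± 39.4 and 161 ± 28.9 TPM, and did not differ beyond their spread. In the ABI2 libraries FARSA was highest at 247 ± 5.09 TPM, followed by QARS at 161 ± 22.4 and VARS at 158 ± 7.56, which also lay within their spread, while IARS and TARS were at 24.0 ± 8.78 and 31.6 ± 5.75 TPM (SD, n = 3 each). IARS thus ranked 21 of the 36 members in the ABI2 libraries and 1 in control. The lowest levels were those of WARS2, at 2.82 ± 0.423 TPM in the ABI2 libraries and 7.26 ± 0.416 TPM in control, and EPRS came next to it in the ABI2 libraries at 3.61 ± 0.406 TPM, against 34.0 ± 7.82 TPM in control.

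The summed level of the 20 cytosolic or dual genes was 1510, 1450 and 1450 TPM in the ABI2 libraries and 1860, 1900 and 1820 TPM in control, without overlap. The summed level of the 16 mitochondrial genes was 414, 394 and 402 TPM against 417, 414 and 411 TPM in control, and there the ranges met. The rises and falls of the mitochondrial genes thus left their sum within 394 to 417 TPM in all 6 libraries. IARS2, with 32.2 ± 11.6 TPM in the ABI2 libraries and 97.3 ± 5.24 TPM in control (SD, n = 3 each), was the main mitochondrial loss on this scale.

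**Figure D5:**
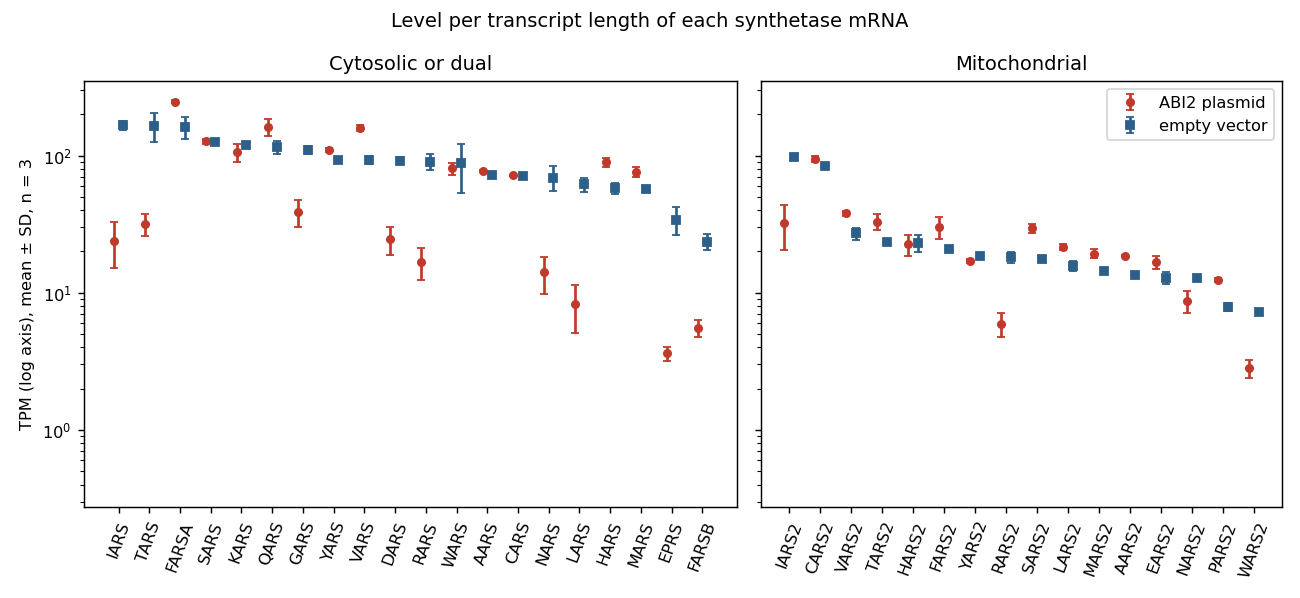
TPM on a log axis of each synthetase gene, as mean ± SD of 3 libraries, ordered by the control level; red circles are ABI2 and blue squares control libraries. IARS and TARS head the control order and lie well below FARSA, QARS and VARS in the ABI2 libraries.

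The ABI2 libraries differed among themselves in a shared way. Replicate 1 had the highest and replicate 3 the lowest CPM for all 13 members that fell, so replicate 1 was the nearest to control for each. Among all 5057 tested genes that fell, replicate 1 was highest for 62.6%. Count-weighted GC content was 53.7% in replicate 1, 53.9% in replicate 2 and 54.1% in replicate 3. Leaving out any single library kept the calls of all 9 cytosolic falls. Without ABI2 replicate 1 the log2 fold changes of LARS and IARS were -3.07 and -2.96, and their weakest values over the 6 omissions were -2.52 and -2.40.

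Genes that work beside the synthetases were counted from lists, to be read against the 35.1% of all tested genes that rose and the 38.0% that fell. Accessory enzymes and synthetases outside the members, 11 in all, gave 4 rises, 4 falls and 3 not passed, so that 72.7% were called against 73.1% of all tested genes. SEPSECS, which makes selenocysteinyl-tRNA, fell by 2.36 on the log2 scale and DTD1, which removes D-amino acids from transfer RNA, rose by 0.75 (edgeR adjusted p = 3.54e-05 and 2.09e-05). SEPSECS was near the floor, at 0.72, 0.971 and 0.948 CPM in the ABI2 libraries and 4.80, 4.84 and 3.91 CPM in control. With GC offsets SEPSECS had -0.60 and DTD1 1.13 (edgeR adjusted p = 0.0297 and 5.05e-05). Of the 11 genes 7 rose and 1 fell with GC offsets, where 28.6% of all tested genes rose and 22.6% fell.

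The 7 elongation factor genes were those of carriers of charged transfer RNA and of the exchange factors of these carriers. Of them 5 rose, 1 fell and 1 did not pass, where 35.1% of all tested genes rose and 38.0% fell. With GC offsets 4 rose, 1 fell and 2 did not pass, beside 28.6% and 22.6% of all tested genes. EEF1A1, the main cytosolic carrier, had 9170, 7280 and 5540 CPM in the ABI2 libraries and 15600, 16400 and 15000 CPM in control, a log2 fold change of -1.10 ± 0.18 (SE; edgeR adjusted p = 0.00142) and of -0.56 with GC offsets (edgeR adjusted p = 0.0106). TUFM, its mitochondrial counterpart, had 691, 693 and 740 CPM against 360, 365 and 393 CPM in control, a log2 fold change of 0.92 ± 0.05 (SE; edgeR adjusted p = 1.59e-05) and of 0.42 with GC offsets (edgeR adjusted p = 0.000201). EEF1A2, the other cytosolic carrier gene of the list, had 123, 124 and 126 CPM against 64.7, 60.6 and 62.9 CPM in control. It rose by log2 0.99 ± 0.05, and by 0.40 with GC offsets (SE; edgeR adjusted p = 1.4e-05 and 0.000464), so the cytosolic carrier genes went both ways.

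All 7 genes of mitochondrial initiation, elongation and release fell, against 38.0% of all tested genes. Their transcripts have 38.5% to 44.2% GC content, and below 45% GC content 83.8% of all tested genes fell. The smallest p was that of the initiation factor MTIF2, at 5.45, 4.75 and 4.61 CPM in the ABI2 libraries against 24.7, 27.3 and 22.2 CPM in control. Its log2 fold change was -2.32 ± 0.12 (SE; edgeR adjusted p = 1.45e-05). With GC offsets 3 of the 7, MTIF2, GFM1 and MTRF1L, were called lower and none higher, beside 30.9% lower and 33.7% higher among all tested genes below 45%. Of 7 genes for transfer RNA transcription, its regulation and export, 4 rose, 2 fell and 1 did not pass, beside the same shares of 35.1% and 38.0%. With GC offsets 2 of these rose, 0 fell and 5 did not pass, where 28.6% of all tested genes rose and 22.6% fell. MAF1 rose by log2 0.75, and by 0.16 with GC offsets (edgeR adjusted p = 2.18e-05 and 0.00658). XPOT, the export receptor of transfer RNA, had 76.1, 52.3 and 40.1 CPM in the ABI2 libraries and 202, 221 and 194 CPM in control, which is -1.87 in log2 fold change (edgeR adjusted p = 0.000422) and -0.44 with GC offsets (edgeR adjusted p = 0.0588).

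The list for sensing of uncharged transfer RNA and for ATF4 had 7 rises, 6 falls and 5 not passed among 18 genes, so that 72.2% were called against 73.1% of all tested genes. With GC offsets 4 rose, 6 fell and 8 did not pass, where 28.6% of all tested genes rose and 22.6% fell. EIF2AK4, the GCN2 kinase that binds uncharged transfer RNA, had 53.7, 39.6 and 30.2 CPM in the ABI2 libraries and 124, 134 and 118 CPM in control, or -1.61 in log2 fold change (edgeR adjusted p = 0.000444) and of -1.28 with GC offsets (edgeR adjusted p = 0.00103). ATF4 mRNA had 335, 362 and 363 CPM against 264, 272 and 277 CPM in control, or 0.38 in log2 fold change (edgeR adjusted p = 0.000331) and of -0.09 with GC offsets, where it did not pass. ATF4 is regulated largely through translation, which these libraries do not measure. EIF2AK4 and ATF4 were named for their roles, after their values were seen. SLC3A2, PHGDH and SHMT2, an amino acid transporter chain and enzymes of serine metabolism, rose by log2 0.99, 0.80 and 0.70, while the cystine transporter SLC7A11 fell by 2.12. All 4 kept their call and direction with GC offsets, where SLC7A11 was at -0.29 (edgeR adjusted p = 0.0206).

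Promoters of the members were searched for the ATF4 element, because it is the known shared element of cytosolic synthetase genes and the members that carry it show whether they moved together. RefSeq start-site windows on GRCh38.p14, from 250 bases before to 50 after the start, were matched for 16 of the 20 cytosolic or dual genes and 14 of the 16 mitochondrial genes. The motif TGATGNAAN, on either strand, was in a window of 7 of the 16 and of 1 of the 14, against 4.45% of all 27305 genes with a window. The matches with 16 bases on either side are given on the strand of the gene, 5′ to 3′, with the motif in capitals.

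IARS, chr9:92293687-92293727, minus strand: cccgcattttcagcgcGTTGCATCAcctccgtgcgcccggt
TARS, chr5:33440950-33440990, plus strand: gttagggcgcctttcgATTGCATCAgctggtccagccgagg
NARS, chr18:57621798-57621838, minus strand: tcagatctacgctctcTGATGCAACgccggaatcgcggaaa
GARS, chr7:30594828-30594868, plus strand: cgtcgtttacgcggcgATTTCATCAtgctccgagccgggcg
MARS, chr12:57488047-57488087, plus strand: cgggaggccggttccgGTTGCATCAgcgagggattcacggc
CARS, chr11:3057402-3057442, minus strand: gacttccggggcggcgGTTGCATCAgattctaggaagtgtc
AARS, chr16:70289670-70289710, minus strand: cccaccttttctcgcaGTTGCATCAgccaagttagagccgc
YARS2, chr12:32756070-32756110, minus strand: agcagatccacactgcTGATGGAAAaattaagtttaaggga

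Without GC offsets the genes with this motif did not share a direction. IARS, TARS, NARS and GARS fell, MARS, CARS and AARS rose, and YARS2 did not pass. With GC offsets IARS, TARS, NARS, GARS and CARS were called lower, at -1.63, -1.24, -1.10, -1.21 and -0.14. MARS, AARS and YARS2 did not pass there, at 0.26, -0.07 and 0.03. The capitals of IARS, MARS, CARS and AARS hold the same 9 letters, GTTGCATCA, while the log2 fold changes of these genes were -2.62, 0.59, 0.15 and 0.24. In IARS, MARS, CARS, NARS and TARS the match begins within 14 bases of the start site, and in AARS it begins 188 bases before it. A match is a description of the letters and not evidence of binding.

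Other motifs were rarer among the members. The E-box CACGTG was in a window of 1 of the 16 cytosolic or dual genes (IARS) and of 3 of the 14 mitochondrial genes (CARS2, EARS2 and MARS2), against 8.77% of all genes. The NRF1 motif, a palindrome spelled by the first capitals of the stretch that follows, was found in MARS2, a mitochondrial gene called higher in both fits, and in no other member, against 1.52% of all genes. In MARS2 it lies next to the E-box, and both motifs are in capitals.

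MARS2, chr2:197705334-197705371, plus strand: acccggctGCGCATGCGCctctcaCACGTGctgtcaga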

How the data were processed

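The authors deposited 1 table for all libraries. Per the file headers it holds a read count, a TPM and an FPKM per gene and library. The deposited counts were whole numbers without normalization, and FPKM was proportional to TPM within a library and was not used further. The submitters' processing notes list the build GRCh38, the aligner HISAT2 2.1.0, StringTie 1.3.3b, and for quality control and trimming FastQC 0.11.2 and Trimmomatic. For annotation, counting program and strand setting: not given in the sources used here. 1 incomplete row was left out. Groups and replicate numbers came from the titles.

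The groups were tested in edgeR 4.0.16, under R 4.3.3 (TMM, filterByExpr with a minimum count of 10, robust quasi-likelihood F test, Benjamini-Hochberg over all 13325 genes tested). The SE of a log2 fold change is its size over the square root of F. Alternatives used DESeq2 1.42.0, limma 3.58.1 on log2(TPM + 1) for genes of at least 1 TPM, and offsets from natural splines with 5 degrees of freedom of GC content and length, taken from the GENCODE release 29 transcript with the longest coding sequence. That source gave a GC value for 13314 of the tested genes. The GC offsets were fitted on genes with a mean log2 CPM above 0. The script was tested on simulated data. Library pairs of a group differed by more than counting noise (chi-square per degree of freedom 20.3 to 46.2). Library totals of 38453152 to 40309690 counts set the counting precision.

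The members and the lists were chosen with earlier results of these data known. Any member could be named, with full statistics for the complex, FARSA, FARSB, GARS, KARS and up to 5 members of smallest p per class and direction. From each list up to 4 genes of smallest p were named. The values of 1 gene of the lists are not reported here.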

Additional observations from a re-analysis of the deposited data

How the results depend on the processing

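DARS, EPRS, FARSB, GARS, IARS, LARS, NARS, RARS and TARS kept their falls under every alternative run, GC offsets and the omission of each library included. With GC offsets 10 cytosolic genes fell and 4 rose, with GC and length offsets 11 and 4, and with the replicate block and GC offsets 9 and 5. Mitochondrial genes gave 5 rises in each of these fits, and 0, 2 and 0 falls. All tested genes that fell numbered 3008, 2936 and 2743 there, and list genes that fell numbered 11, 12 and 11, against 22 without offsets. The cytosolic median log2 fold change was -0.11, -0.18 and -0.11 in these fits and -0.10 with limma on TPM. The mitochondrial median was 0.07, 0.15 and 0.07, with 0.37 on TPM and 0.45 with library size without TMM. The cause of these moves was not tested. Without TMM the median of all genes was -0.10, and 4101 genes rose and 5420 fell. There 7 cytosolic genes rose, and 6 rose with limma on TPM, beside 9 in edgeR with TMM and no offsets.

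Without each replicate in turn, 7 to 8 cytosolic genes rose and 9 fell, and 10 mitochondrial genes rose and 3 to 4 fell. The medians were 0.00 to 0.11 and 0.51 to 0.58. 17 to 21 list genes rose and 20 to 22 fell, and over all genes 4369 to 4562 rose and 4713 to 5012 fell.

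Whether replicate numbers pair the samples is not stated in the titles. Deviations from the group means correlated at 0.0223, 0.0185 and 0.0614 for the same numbers, and at -0.0481 to 0.0251 for unlike numbers. ABI2 replicates 2 and 3 correlated best with the control of the same number, and ABI2 replicate 1 with control replicate 2. All these correlations were small, and they do not settle the pairing. With the replicate block 8 cytosolic genes rose and 9 fell, 10 mitochondrial genes rose and 4 fell, the medians were 0.07 and 0.55, 21 list genes rose and 20 fell, and 4548 genes rose and 4929 fell in all. CARS lost its call there (log2 0.15, edgeR adjusted p = 0.052). The ratio count over pairs was 11 on the CPM and on the TPM scale.

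Signs turned as follows, in log2 fold change with GC offsets, with GC and length offsets, and with the replicate block and GC offsets. AARS had -0.07, -0.04 and -0.07. CARS had -0.14, -0.19 and -0.14. KARS had 0.46, 0.33 and 0.45. SARS had -0.01, -0.16 and -0.01. YARS had -0.06, -0.04 and -0.05. CARS2 had -0.09, -0.22 and -0.09. NARS2 had 0.52, 0.38 and 0.52. With GC and length offsets EARS2 had -0.10, HARS2 -0.09 and YARS2 -0.11. With library size without TMM HARS2 had -0.05 and YARS2 -0.06. On TPM WARS had -0.03, HARS2 -0.04 and YARS2 -0.10. KARS was at 0.01 with DESeq2 size factors, with DESeq2 and with no filter. Over the omissions of 1 library KARS ran from -0.12 to 0.08 and HARS2 from -0.09 to 0.20.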

Other observations

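The counts per TPM of a gene imply the effective transcript length that the authors' pipeline used in a library. Relative to the median of tested genes, this implied length of HARS differed by -0.17 (log2, ABI2 minus control), at the percentile 7.14 of all tested genes. The implied lengths of WARS, NARS and TARS were higher by 0.20, 0.18 and 0.17, at the percentiles 94.5, 93.7 and 93.3. For EPRS, LARS, RARS, DARS and FARSB the difference was 0.01 to 0.03. For WARS, NARS and TARS the control libraries themselves were spread, with an SD of 0.20, 0.22 and 0.17 on the log2 scale. In the ABI2 libraries the SD of these genes was 0.02, 0.07 and 0.17. Their differences between the groups did not exceed the control SD. For HARS the SD was 0.06 in the ABI2 libraries and 0.08 in control.

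Gene span and fold change were set against each other in each class. Across the 20 cytosolic or dual genes, which share the libraries, Pearson's r between log2 gene span and log2 fold change was -0.65, and -0.60 with GC offsets. Across the 16 mitochondrial genes it was -0.32 and -0.16. These are descriptions over genes, which are not independent replicates.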
